A study of Mus musculus with 3 samples.

Results

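Imprinted genes are transcribed mainly from the copy of one parent, and the levels of 40 of them were compared between mouse embryonic stem (ES) cells carrying a mutant or a wild-type form of the histone variant H2A.Z. The members are imprinted genes of several chromosome clusters, chosen by gene symbol. Of the 40, 39 had a row among the 15311 genes of the deposited count table and 36 had enough reads to be tested. Of the listed genes, 23 are expressed from the paternal copy in mouse, 16 from the maternal copy, and Gnas gives transcripts of either parent depending on the promoter and tissue. The counts do not separate the parental alleles, so a level below is the sum of both copies and says nothing of the imprint itself.

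The samples were 1 K3R3 library and 2 wild-type (WT) libraries of polyadenylated RNA. The K3R3 cells were KH2 ES cells, derived from the male hybrid line V6.5 (129SvJae and C57BL/6), with a lentiviral H2A.Z transgene fused to yellow fluorescent protein (YFP) in which 3 C-terminal lysines were changed to arginine. These are lysines that can carry ubiquitin. The WT cells carried the same transgene without the changes. By the labels both kinds of line had a CMV promoter under an rtTA system induced by doxycycline at 1 µg/ml, a sort for YFP, and a blasticidin-selected hairpin that depletes the cell's own H2A.Z transcript through its 3′ UTR. The labels do not say which of 2 hairpins a library had, whether the lines were clones, or whether the WT libraries came from separate cultures. WT is therefore also a transgenic, H2A.Z-depleted line, and untransduced ES cells were not analysed here. Cells had been kept on irradiated fibroblasts, and were plated without them for the final passage.

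Imprinting is set in the germ line by DNA methylation at control regions and is kept after fertilisation, in mouse with the help of the zinc finger protein ZFP57, its partner TRIM28 and the methyltransferase DNMT1. Many imprinted genes lie in clusters in which a single control region sets the pattern of several neighbours, often through a long non-coding RNA. Paternally expressed genes include growth promoters such as Igf2, and maternally expressed genes include growth restrainers such as Cdkn1c, Igf2r and Grb10. ES cells hold many of these genes at low levels, and cultured ES cells are known for variable imprints.

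The K3R3 library held 24718223 counts, and the WT libraries held 21614693 and 25426228. H2afz, the gene of H2A.Z.1, stood at 222 CPM (counts scaled to library size and TMM factors) in K3R3, against 219 and 232 CPM in WT replicates 1 and 2, a value that checks no label because the transgene adds coding reads. All 10 ES cell markers listed were present, with summed levels of 4539 CPM in K3R3 against 6900 and 5987 CPM in WT; 4 of them fell (Sox2, Dppa5a, Klf4 and Tfcp2l1). Over all 13829 genes tested, 2.02% were called higher in K3R3 and 0.542% lower, which is the background of the marker counts here. The primitive endoderm list held 9 tested markers, of which 4 fell, with sums of 204 CPM in K3R3 against 479 and 388 CPM in WT. Among 28 of 31 fibroblast markers with a row, 1 rose (Thy1) and 16 lay above both WT libraries, although the sum was 1636 CPM in K3R3 against 2009 and 1899 CPM in WT; Postn, Lum and Fap had no row. Collagen gene Col1a1 stood at 8.68 CPM in K3R3 against 4.90 and 6.16 CPM in WT. Trophoblast markers summed to 70.8 CPM in K3R3 against 81.6 and 61.6 CPM in WT, with 1 of 9 tested called higher (Esx1), and neural markers to 99.1 CPM against 65.3 and 81.3 CPM, with 1 of 5 called higher (Zic1). DESeq2 called fewer of these markers: 1 of the ES cell and 2 of the primitive endoderm list lower, and 0 of the fibroblast and 1 of the trophoblast list higher. The part of these marker differences in the results on imprinted genes was not tested. In such bulk libraries, fewer cells of a type and less RNA per cell cannot be told apart.

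The promoters of the members are shown first, since the sequence TGCCGC is the core that ZFP57 is known to bind when its CpG is methylated. Both strands of the 250 bases before to 50 after each start were searched in RefSeq promoters of build GRCm38.p6. Of 34 members with a promoter there, 13 held the letters in at least 1 window (38.2%), against 22.5% of all tested genes with a promoter. The 34 include the untested Snrpn, Nap1l5, Airn and Dio3, of which Snrpn and Nap1l5 held the letters. Cdkn1c had no promoter there. A share by gene goes up with its number of windows, and CpG content was not matched. By windows, 14 of 51 held it (27.5%), against 19.1% of the windows of tested genes and 11.6% of all windows. Below, the match and its flanks are given 5′ to 3′ on the gene's strand for 2 genes that rose and for 2 paternally expressed genes that did not pass the test, so that a reader can set them side by side. The capitals mark the match, which is the reverse complement of the motif in each.
Plagl1 (chr10:13090732-13090757, + strand): ggcgtgttgcGCGGCAaagcccacgg
Grb10 (chr11:12037381-12037406, − strand): gtgcggggagGCGGCAggaagggaag
Mest (chr6:30737973-30737998, + strand): gaggggcgctGCGGCAggatgggcgg
Nnat (chr2:157560095-157560120, + strand): caccggggctGCGGCAttgcgcccag
The letters were therefore present in promoters of genes with and without a call. A match describes the sequence alone, and methylation or ZFP57 binding was not measured.

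Plagl1, Cdkn1c and Grb10 rose in K3R3, and no imprinted gene fell. The 3 calls of 36 tested members make 8.33%, beside 2.02% of the 13829 genes tested that were called higher and 0.542% called lower. A gene was called at an adjusted p under 0.05 in edgeR's quasi-likelihood test (two-sided, Benjamini-Hochberg over all genes tested). At an unadjusted p under 0.05, 8 members were higher and 1 was lower, beside 7.9% and 3.33% of all genes. DESeq2 called 2 members higher, Plagl1 and Cdkn1c, beside 0.239% of all genes, and 0 lower. The WT pair gives the spread in these tests, and K3R3, with 1 library, is taken to have the same spread. In edgeR's quasi-likelihood test that spread is a trend across genes, so a wide WT gap of a single gene does not widen its SE.

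Plagl1, a paternally expressed zinc finger transcription factor known to bind and regulate other imprinted genes, had 35.5 CPM in K3R3, against 11.8 and 9.18 CPM in WT replicates 1 and 2. K3R3 lay far above both WT libraries, at 3.02 times replicate 1 and 3.86 times replicate 2, while the WT pair differed by a ratio of 0.782. The fitted log2 change was 1.76 (SE 0.31; adjusted p = 9.5e-06). Its raw counts were 924 in K3R3 against 247 and 228 in WT.

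Cdkn1c, the maternally expressed cyclin-dependent kinase inhibitor p57KIP2, had 51.2 CPM in K3R3, against 19.8 and 21.1 CPM in WT. The WT values nearly coincided, and K3R3 stood at 2.59 and 2.43 times them. The log2 change was 1.32 (SE 0.28; adjusted p = 0.00045). Its relatives Cdkn1a (68.2 CPM in K3R3 against 89.1 and 52.6 CPM in WT) and Cdkn1b (55.2 CPM against 66.1 and 88.2 CPM), which encode p21 and p27 and are not imprinted, did not pass the test.

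Grb10 encodes an adaptor that restrains insulin and IGF receptor signalling, expressed from the maternal copy in most mouse tissues and from the paternal copy in neurons. It was abundant, with 609 CPM in K3R3 against 382 and 434 CPM in WT. K3R3 lay above both WT libraries, but by a smaller factor than for the other calls, and the log2 change was 0.58 (SE 0.18; adjusted p = 0.045). This call did not hold with RLE factors (adjusted p = 0.051), without the filter on low counts (adjusted p = 0.052), with edgeR's likelihood ratio test (adjusted p = 0.093) or with DESeq2 (adjusted p = 0.37). Grb7 and Grb14, its relatives, did not pass the test either, at log2 0.02 and 0.92.

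**Figure D1:**
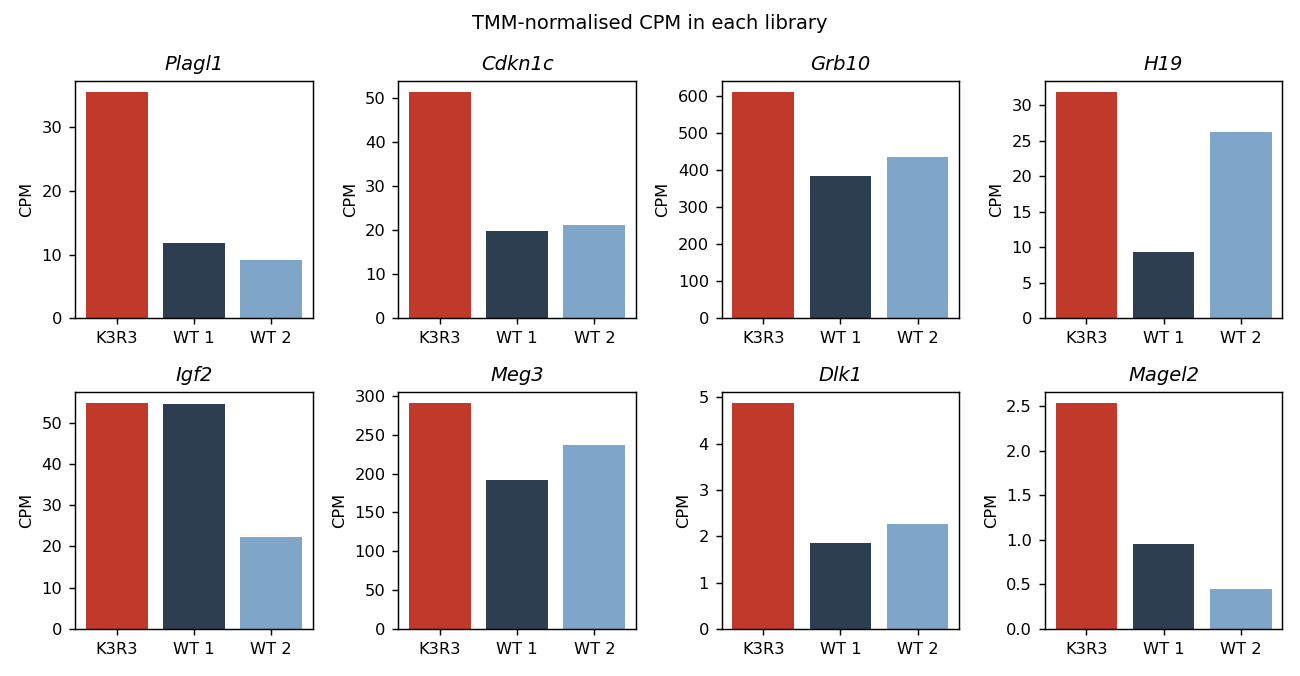
TMM-normalised CPM (vertical axes, linear from 0) of 8 imprinted genes in the K3R3 library (red) and WT replicates 1 and 2 (dark and light blue), 1 bar per library. Plagl1 (35.5 against 11.8 and 9.18 CPM) and Cdkn1c (51.2 against 19.8 and 21.1 CPM) stand clear of a close WT pair, while the WT bars of H19 (9.37 and 26.3 CPM) and Igf2 (54.6 and 22.4 CPM) are far from each other.

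The authors' deposited table gave an unadjusted p under 0.05 for 4 of the 39 members, Plagl1, Cdkn1c, Grb10 and Ppp1r9a, and for 4.86% of all its genes. In the authors' deposited table the log2 values were -1.75 for Plagl1, -1.31 for Cdkn1c, -0.57 for Grb10 and 0.55 for Ppp1r9a. By the values that column sets WT over K3R3, so a negative entry there means higher in K3R3.

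Taking the members together, 18 of 36 lay above both WT libraries (beside 33.9% of all genes tested), 10 lay below both (27.8%, beside 34.2%) and 8 lay between them. The median log2 change of the members was 0.22, with quartiles of -0.17 and 0.55, against -0.01 over all genes. Without WT replicate 1 the members' median was 0.20, and without replicate 2 it was 0.072. By a rule of size with no test (CPM plus 1 at least 2-fold above each WT library, mean CPM of at least 1), 2 of 33 members passed, Plagl1 and Cdkn1c, beside 2.1% of all such genes. In the other direction 0 passed, beside 0.172%.

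The members' shift has to be read against the promoter class and the level of each gene, since both go with the change over all genes. Bivalent genes, whose promoters carry an activating and a Polycomb mark in ES cells, had a median log2 change of 0.65 over the 1671 tested. The 11 bivalent members had a median of 0.58, and 8 of them lay above both WT libraries (72.7%, beside 72.9% of bivalent genes). Of these 11, Cdkn1c and Grb10 were called higher, beside 10.5% of bivalent genes. The 21 active members had a median of 0.02, against -0.04 over 10984 active genes; 1 was called higher (Plagl1), beside 0.838%; 7 lay above both WT libraries (33.3%, beside 27.8%) and 8 below both (38.1%, beside 37.9%). Of the 4 members with no such class (Rian, Mirg, Rtl1 and Asb4), 3 lay above both WT libraries and 1 below both, beside 35.4% and 33.2% of such genes. None of these was called in either direction, by DESeq2 or at an unadjusted p under 0.05, beside 1.11% called higher and 1.19% called lower. With the median of genes of the same class and CPM range taken off each member, the members' median was 0.082. Within both classes the shares above WT were therefore close to those of other genes of the class.

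The members' changes also varied with their level, as those of all genes did. Those with a mean of 0.5 to 2 CPM had a median log2 change of 0.64 (6 members), against 0.50 over all genes of that range, and those at 2 to 10 CPM had 0.23 (7 members) against 0.20. At 10 to 100 CPM the members stood at 0.40 (13 members) while all genes stood at -0.04, and at 100 CPM or more at 0.01 (10 members) against -0.13. The members' median at 10 to 100 CPM, the range that holds Plagl1, Cdkn1c, H19 and Igf2, was 0.26 without WT replicate 1 and 0.070 without replicate 2.

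**Figure D2:**
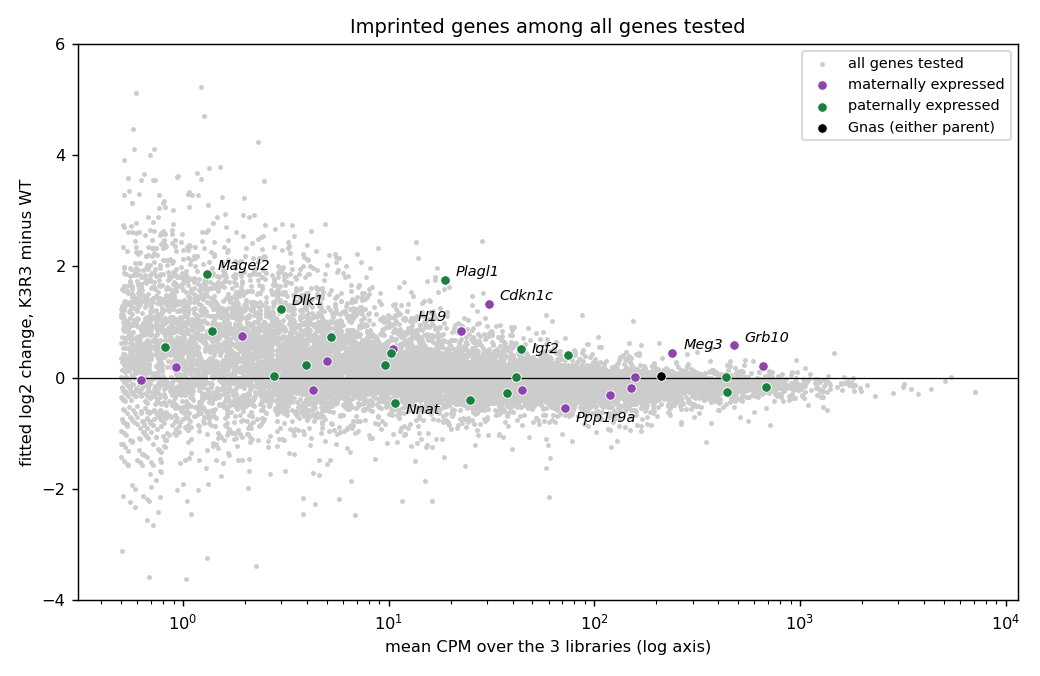
Fitted log2 change, K3R3 over WT (vertical axis), against the mean CPM over the libraries (horizontal log axis) for the tested members and for all genes tested. All genes drift from a median of 0.50 at 0.5 to 2 CPM to -0.13 at 100 CPM or more, and Plagl1 and Cdkn1c sit apart from the other members at 10 to 100 CPM.

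The 19 tested paternally expressed members had a median log2 change of 0.23, with 1 called higher (Plagl1; 5.26%, beside 2.02% of all genes). Above both WT libraries lay 10 of them (52.6%, beside 33.9%), and below both 4 (21.1%, beside 34.2%). The 16 maternally expressed members had a median of 0.20, with 2 called higher (Cdkn1c and Grb10), 8 above both and 6 below both. The paternal minus maternal difference of the medians was 0.03, and it was 0.062 without WT replicate 1, 0.18 without replicate 2 and -0.084 with a minimum mean of 2 CPM, so it has no stable direction. The maternal median was 0.013 without WT replicate 2.

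The maternally expressed genes were also grouped by where they are known to be imprinted. Of 8 that are imprinted mainly in placenta or brain (Ascl2, Cd81, Tssc4, Phlda2, Ppp1r9a, Asb4, Copg2 and Commd1), 0 were called (by DESeq2 also 0, with 1 lower and 0 higher at an unadjusted p under 0.05). Of these 8, 1 lay above both WT libraries and 6 below both, with a median of -0.20. All 8 others (H19, Cdkn1c, Igf2r, Grb10, Meg3, Rian, Mirg and Zim1) had a fitted change above 0, beside 48.0% of all genes tested. Of them, 7 lay above both WT libraries (87.5%, beside 33.9%), and the median was 0.54. With the placenta and brain genes left out of the maternal set alone, and all paternally expressed members kept, the paternal minus maternal difference of medians became -0.31. This split describes the genes and was not tested.

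**Figure D3:**
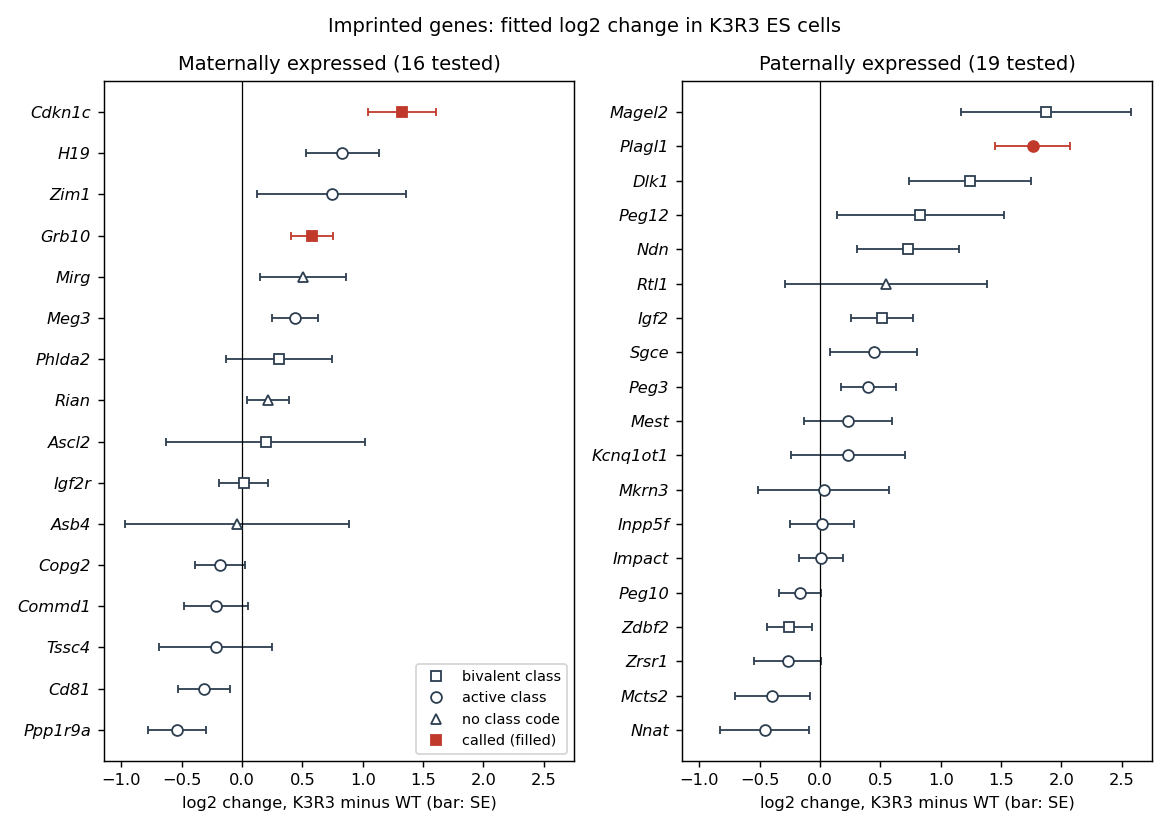
Fitted log2 change, K3R3 over WT (horizontal axis), of each tested imprinted gene with its SE as a bar, grouped by the expressed parental copy. Paternally expressed genes (median 0.23) and maternally expressed genes (median 0.20) overlap widely, and Plagl1, Cdkn1c and Grb10 are the genes called.

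In the H19-Igf2 cluster, known for a control region that lets one parental copy make Igf2 and the other H19, the WT libraries disagreed in opposite directions. H19, a maternally expressed non-coding RNA, had 31.8 CPM in K3R3, against 9.37 and 26.3 CPM in WT replicates 1 and 2. Igf2, the paternally expressed growth factor, had 54.8 CPM in K3R3, against 54.6 and 22.4 CPM in WT. K3R3 was thus closest to the higher WT library for each gene, replicate 2 for H19 and replicate 1 for Igf2. The ratio of WT replicate 2 to replicate 1 was 2.81 for H19 and 0.409 for Igf2, and among 5977 genes of 10 to 100 CPM only 0.151% and 0.368% had a wider gap between the WT libraries. The fitted log2 changes were 0.83 for H19 (SE 0.30; adjusted p = 0.12) and 0.51 for Igf2 (SE 0.26; adjusted p = 0.44), so neither was called. These edgeR SEs rest on the trend across genes and not on the WT gaps of H19 and Igf2. DESeq2 gave SEs of 1.14 for H19 and 1.02 for Igf2, and called neither. Without WT replicate 1 the log2 difference of H19 was 0.28 and of Igf2 1.29, and without replicate 2 they were 1.76 and 0.0043.

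H19 and Igf2 also host microRNAs, whose mature forms were not measured in these libraries. They are printed because the levels of these host transcripts differ between the libraries. Bases 2 to 8, the seed, are in capitals; the 4 seeds differ from each other (RefSeq, GRCm38.p6).
miR-675-5p (H19, chr7:142577112-142577133, − strand): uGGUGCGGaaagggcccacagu
miR-675-3p (H19, chr7:142577078-142577099, − strand): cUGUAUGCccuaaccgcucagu
miR-483-5p (Igf2, chr7:142654968-142654989, − strand): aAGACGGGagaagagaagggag
miR-483-3p (Igf2, chr7:142654932-142654952, − strand): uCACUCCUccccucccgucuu

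The Kcnq1ot1 domain holds Cdkn1c beside genes that the same paternal non-coding RNA, Kcnq1ot1, keeps silent in cis. Cdkn1c was the only one of its 6 members called, and the median of the domain was 0.21. Kcnq1ot1 itself had 4.38 CPM in K3R3, against 4.76 and 2.74 CPM in WT, so K3R3 lay between the WT values (log2 0.23, SE 0.47). Phlda2, a maternally expressed restrainer of placental growth, had 5.72 CPM in K3R3 against 5.61 and 3.67 CPM in WT. Ascl2, a trophoblast transcription factor, had 0.999 CPM in K3R3 against 1.24 and 0.524 CPM in WT. K3R3 lay just above the higher WT value for Phlda2 (log2 0.31, SE 0.44) and between the WT values for Ascl2. The tetraspanin gene Cd81 had 102 CPM in K3R3 against 144 and 110.5 CPM in WT, and Tssc4 had 3.88 CPM against 5.09 and 3.95 CPM. Both lay just below the lower WT value. Without WT replicate 2 the median of the domain was -0.21. Kcnq1, from whose intron the antisense Kcnq1ot1 starts, was under the filter, and no strand setting is known for the counts, so reads of overlapping genes could be shared.

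In the Dlk1-Dio3 cluster, paternal protein-coding genes and maternal non-coding RNAs stood higher together. All 5 tested members lay above both WT libraries, beside 33.9% of all genes tested. None passed the test, and the cluster median was 0.51. Dlk1, a Notch-like membrane protein of paternal expression, had 4.88 CPM in K3R3, against 1.86 and 2.26 CPM in WT. K3R3 was clear of both WT values, with a log2 change of 1.24 (SE 0.51; adjusted p = 0.23). Relative to the median of bivalent genes of the same CPM range, it was 0.57. On the maternal side, Meg3 had 291 CPM in K3R3 against 192 and 237 CPM in WT (log2 0.44, SE 0.19; adjusted p = 0.28). Rian, which hosts small nucleolar RNAs, had 725 CPM in K3R3 against 588 and 663 CPM in WT (log2 0.21). Mirg, a microRNA host, had 13.1 CPM in K3R3 against 10.6 and 7.94 CPM in WT (log2 0.51). All 3 non-coding RNAs thus lay above both WT libraries, each with a smaller fitted change than Grb10. Rtl1, a retrotransposon-derived gene, had 1.04 CPM in K3R3 against 0.904 and 0.524 CPM in WT. Dio3, a thyroid hormone deiodinase, had 16 counts in K3R3 against 11 and 4 in WT and was not tested. Without WT replicate 2 the cluster median was 0.31, and without replicate 1 it was 0.72.

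In the Snrpn domain, which is tied to Prader-Willi and Angelman syndromes in humans, all 4 tested genes are paternally expressed and weakly transcribed here. The median was 0.78, 3 of 4 lay above both WT libraries and 0 were called (by DESeq2 also 0, with 1 higher at an unadjusted p under 0.05). Over all genes tested, 33.9% lay above both WT libraries and 2.02% were called higher, and over bivalent genes 72.9% and 10.5%. Magel2, a MAGE family gene, had 2.54 CPM in K3R3, against 0.951 and 0.443 CPM in WT. K3R3 exceeded both WT libraries, on 66 counts in K3R3 against 20 and 11 in WT. The log2 change was 1.87 (SE 0.71; adjusted p = 0.15), and the ratio to the pooled WT was 3.75 with an exact 95% interval of 2.41 to 5.95 that covers counting error only. Ndn, another MAGE family gene, had 7.11 CPM in K3R3 against 5.04 and 3.55 CPM in WT (log2 0.73, SE 0.43). Peg12, an intronless relative of the Frat genes, had 1.96 CPM in K3R3 against 1.24 and 0.967 CPM in WT (log2 0.83, SE 0.70). Mkrn3, a ring finger gene, did not follow them, with 2.80 CPM in K3R3 between the WT values of 2.43 and 3.06 CPM. Relative to the median of bivalent genes of the same CPM range, the log2 change was 0.82 for Magel2, 0.055 for Ndn and -0.22 for Peg12. The level of Snrpn was not analysed here.

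The Peg3 domain held 2 members, both above both WT libraries (beside 33.9% of all genes tested) and neither called. Peg3, a paternally expressed zinc finger gene, had 89.1 CPM in K3R3 against 60.8 and 74.2 CPM in WT (log2 0.40, SE 0.23). Zim1, its maternally expressed zinc finger neighbour, had 2.65 CPM in K3R3 against 1.76 and 1.41 CPM in WT (log2 0.74, SE 0.62). It rests on 69 counts in K3R3 against 37 and 35 in WT. Relative to the median of active genes of the same CPM range, the log2 change was 0.45 for Peg3 and 0.34 for Zim1. The genes of opposite parental copies thus stood on the same side of WT, as in the Dlk1-Dio3 cluster.

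The median of the Peg10 domain was -0.10, but 0.022 without WT replicate 1 and 0.022 with totals implied by RPKM. In it, Peg10, a retrotransposon-derived placental gene, had 635 CPM in K3R3 against 834 and 590 CPM in WT, and Sgce, which encodes a sarcoglycan, had 12.5 CPM against 9.85 and 8.58 CPM. Ppp1r9a, the neuronal actin-binding gene neurabin, had 55.4 CPM in K3R3 against 87.7 and 73.3 CPM in WT. By edgeR's test it was the 1 member below WT at an unadjusted p under 0.05, and it is singled out for that (log2 -0.54, SE 0.24; adjusted p = 0.30). Asb4 was scarce, at 0.615 CPM in K3R3 against 0.618 and 0.645 CPM in WT.

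Mest, a paternally expressed hydrolase gene, had 10.6 CPM in K3R3 against 7.85 and 10.2 CPM in WT, and Copg2, which overlaps it on the other strand, had 138 CPM against 141 and 171 CPM. Igf2r, the receptor that clears IGF2, had 159 CPM in K3R3 against 159 and 155 CPM in WT, a log2 change of 0.01 (SE 0.20). Its antisense RNA Airn had 14 counts in K3R3 against 10 and 12 in WT, too few to be tested. Igf2r was thus level in all 3 libraries while Igf2 was not. Zrsr1, a splicing factor gene within an intron of Commd1, had 32.9 CPM in K3R3 against 41.1 and 38.3 CPM in WT, and Commd1 had 40.1 CPM against 48.3 and 44.9 CPM. Both lay below both WT libraries, and neither was called. Without a known strand setting, values of Airn, Copg2 and Zrsr1 may share reads with their overlapping partners.

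**Figure D4:**
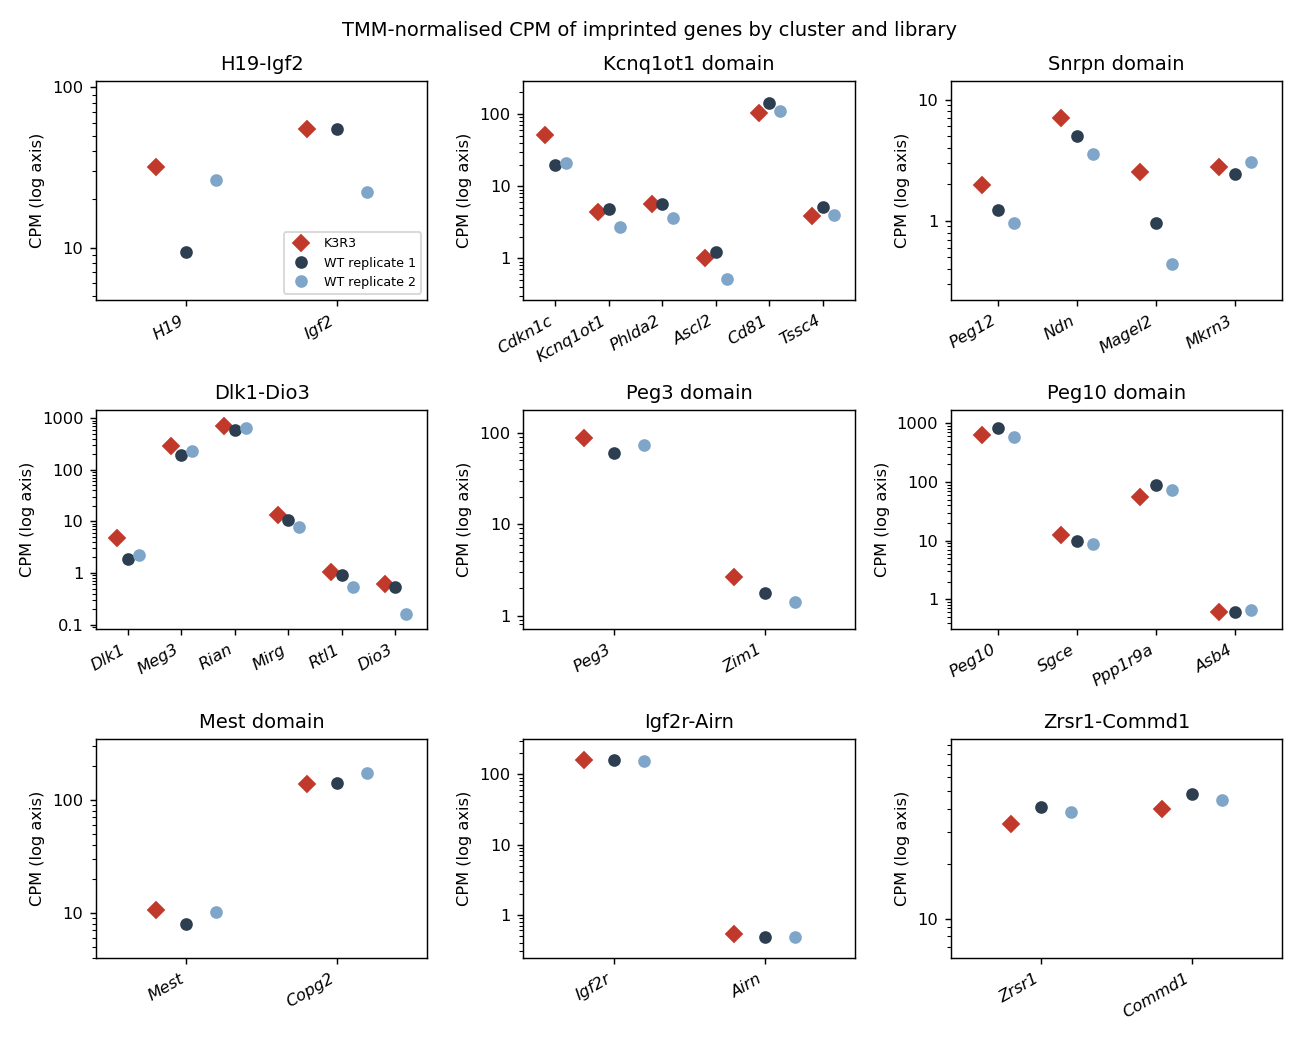
TMM-normalised CPM (log axes) of the members of each imprinted cluster, with K3R3 as a red diamond left of WT replicates 1 and 2 (dark and light circles). K3R3 is the highest point for each tested gene of the Dlk1-Dio3 and Peg3 panels and the lowest for both genes of the Zrsr1-Commd1 panel, and the WT circles of H19 and Igf2 are far apart.

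Of the members that stand alone, beside Plagl1 and Grb10, none was called. Nnat, a small membrane protein gene, had a log2 change of -0.46, and Mcts2, an intronless copy of Mcts1 inside H13, had -0.40. Zdbf2 had -0.25, Inpp5f 0.02, Gnas 0.04 and Impact 0.01. The sign of Impact, and of Asb4 above, turned with another scaling (-0.0012 for Impact with RLE factors, 0.083 for Asb4 with totals implied by RPKM), so neither has a direction. Without WT replicate 1 the sign of Inpp5f (-0.035) and Gnas (-0.0024) turned as well. Nap1l5, an intronless gene inside Herc3, had 13 counts in K3R3 against 13 and 6 in WT and was not tested. Among 12 tested paralogs and overlapping partners of the members 0 were called (at an unadjusted p under 0.05 also 0, and 0 by DESeq2), with H13 at log2 0.29, Mcts1 at -0.30, Zrsr2 at -0.19, Herc3 at 0.39 and Blcap, in which Nnat lies, at 0.10.

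Levels of different genes can be set side by side only per length. On the deposited RPKM scale (reads scaled to gene length and library size), Rian was the highest member in each library, with 143 RPKM in K3R3 against 106 and 121 RPKM in WT. Impact, a regulator of translation under stress, had 90.4 RPKM in K3R3 against 79.4 and 85.4 RPKM in WT. Grb10 stood at 84.6 RPKM in K3R3 against 48.3 and 55.7 RPKM in WT. Cdkn1c had 18.6 RPKM in K3R3 against 6.56 and 7.10 RPKM in WT, and Plagl1 only 4.77 RPKM against 1.44 and 1.14 RPKM. At the low end, Magel2 had 0.384 RPKM in K3R3 against 0.131 and 0.0621 RPKM in WT. Of the genes called, Grb10 was thus among the more abundant members and Plagl1 among the scarcer ones.

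Among further imprinted genes outside the 40, 2 of 24 tested rose and 0 fell (DESeq2 called 0 lower, and 1 was lower at an unadjusted p under 0.05), beside 2.02% and 0.542% of all genes. Of these 24, 13 lay above both WT libraries (54.2%, beside 33.9%), and the median log2 change was 0.27, or 0.13 without WT replicate 2. With the median of the same class and CPM range taken off, it was 0.021. Gatm, which makes the creatine precursor guanidinoacetate, had 16.1 CPM in K3R3 against 4.33 and 3.91 CPM in WT (log2 1.97, SE 0.37; adjusted p = 6.1e-05). Atp10a, a phospholipid flippase gene beside the Snrpn domain, had 25.4 CPM in K3R3 against 9.94 and 12.4 CPM in WT (log2 1.18, SE 0.32; adjusted p = 0.015). Both were above both WT libraries. DESeq2 called Gatm but not Atp10a (adjusted p = 0.16). Calcr, the calcitonin receptor, Begain and Usp29 were at log2 1.85, 1.62 and 1.29 and did not pass the test. Begain had 1.31 CPM in K3R3 against 0.571 and 0.282 CPM in WT, and Usp29 had 0.845 CPM against 0.190 and 0.483 CPM. Both passed the filter of 0.5 CPM only through their K3R3 level, and could hardly have been called lower.

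Plagl1 is known to sit in a network of co-expressed imprinted genes. Of the 15 tested genes listed for that network, most of which are members above, 4 rose (Plagl1, Cdkn1c, Grb10 and Gatm), beside 2.02% of all genes. Above both WT libraries lay 12 (beside 33.9%) and below both 0 (beside 34.2%), with a median of 0.51. The genes of this list are largely those already described. Of 9 IGF signalling genes outside it, 2 rose, beside the same 2.02%: Igfbp3, with 45.4 CPM in K3R3 against 20.5 and 22.6 CPM in WT (log2 1.08, SE 0.28; adjusted p = 0.010), and Igfbp5, with 4.69 CPM against 0.571 and 0.645 CPM (log2 2.93, SE 0.62; adjusted p = 0.00049). These encode binding proteins that hold IGFs in the extracellular space. DESeq2 called neither (adjusted p = 0.065 for Igfbp3 and 0.14 for Igfbp5). The receptor genes Igf1r and Insr were at log2 -0.16 and 0.58 and were not called. The 6 relatives of Cdkn1c, Plagl1 and Grb10 had 0 calls, by DESeq2 also 0, with 1 higher and 1 lower at an unadjusted p under 0.05.

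A list of 26 tested factors that keep, write or remove DNA methylation or act at imprinted control regions had 0 that rose (by DESeq2 also 0, with 1 higher at an unadjusted p under 0.05) and 2 that fell, beside 2.02% and 0.542% of all genes. Of the 26, 16 lay below both WT libraries (61.5%), beside 34.2% of all genes and 61.3% of genes of 100 CPM or more. The median log2 change was -0.17, against -0.13 over genes of 100 CPM or more. Tet2, a dioxygenase that oxidises methylcytosine, had 174 CPM in K3R3 against 316 and 302 CPM in WT (log2 -0.83, SE 0.20; adjusted p = 0.0032). Dnmt3l, a cofactor of the de novo methyltransferases, had 73.6 CPM in K3R3 against 209 and 73.8 CPM in WT (log2 -0.94; adjusted p = 0.0025). K3R3 equalled WT replicate 2 for Dnmt3l, so its call rests on replicate 1, and without replicate 1 the log2 difference was -0.0040. DESeq2 called Tet2 (adjusted p = 0.032) and not Dnmt3l. Zfp57 had 504 CPM in K3R3 against 561 and 690 CPM in WT, Trim28 had 752 CPM against 1039 and 729 CPM, and Dnmt1 had 229 CPM against 263 and 251 CPM. None of these was called.

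The protein-coding neighbours of the members, up to 3 on each side, served to show whether the changes extended along the chromosome. Only the members were left out, so the neighbours include further imprinted genes such as Atp10a, Usp29, Begain, Ddc and Ube3a. Of 105 tested, 3 rose (2.86%, beside 2.02% of all genes) and 1 fell (beside 0.542%), so the calls were near the background. The median log2 change was -0.04. Above both WT libraries lay 35 (33.3%, beside 33.9% of all genes), and below both lay 39 (37.1%, beside 34.2%). The genes called lay beside Grb10 and the Snrpn domain. Phactr2, near Plagl1, had 14.6 CPM in K3R3 against 6.47 and 7.13 CPM in WT (log2 1.097; adjusted p = 0.071). Beside Grb10, both directions occurred. Ikzf1, the lymphoid transcription factor Ikaros, had 7.87 CPM in K3R3 against 1.38 and 0.967 CPM in WT (log2 2.75; adjusted p = 1.8e-05), and Vstm2a had 2.42 CPM against 0.0951 and 0.282 CPM (adjusted p = 0.0026). On 63 counts in K3R3 against 2 and 7 in WT, the ratio of Vstm2a to the pooled WT was 12.3 (95% interval 6.1 to 28.2, counting error only). Both WT values of Vstm2a were under the 0.5 CPM of the filter. It was thus tested only through its K3R3 level, and could hardly have been called lower. Cobl, an actin nucleator, fell, with 214 CPM in K3R3 against 335 and 368 CPM in WT (log2 -0.72; adjusted p = 0.015). The third gene that rose was Atp10a, described above. DESeq2 called Ikzf1 alone among these neighbours (adjusted p = 0.032), and with totals implied by RPKM 5 neighbours were called higher and 0 lower. Further neighbours at least 2-fold from WT by the fit, none of them called, included Park2, Usp29, Begain and Zfp521 above WT, and Gpr1 below it. Of these, Usp29 and Begain were tested only through their K3R3 level, as given above.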

How the data were processed

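Strand-specific libraries of oligo(dT)-selected RNA were sequenced, per the labels' protocols. The authors deposited read counts per gene as whole numbers, counted with HTSeq 0.5.4p1 (mm9) per the submitters' processing notes. Aligner, annotation and strand setting are not given in the sources used here. No count is below 1, so genes with a count of 0 in any library have no row. The authors also deposited RPKM values, each count scaled by gene length and a library total. The authors' deposited ratio (fold), its log2 value and an unadjusted p-value come from their own comparison, for which the notes name DESeq 1.10.1. Class codes (active, bivalent) came from an earlier study, per the file headers.

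The counts were tested with edgeR 4.0.16 in R 4.3.3: TMM factors, a minimum mean of 0.5 CPM, 2 WT libraries against 1 K3R3 library with 1 residual degree of freedom, so the p-values rest on a dispersion trend across genes. Nothing says that the WT libraries came from separate cultures, and p-values then reflect only how these libraries differ, possibly for technical reasons. Log2 values without a WT replicate compare log2 CPM (prior count 1) and have no test. DESeq2 1.42.0, edgeR's likelihood ratio test, RLE factors, library totals implied by RPKM (counts were 67.1%, 66.2% and 66.9% of them in K3R3 and WT replicates 1 and 2), other filters and leaving out a WT replicate were tried. The members and all lists were chosen with earlier results of these data known, so no list was tested. Members called, at least 1.5-fold from WT or in a cluster with one are given per library; members of other lists are named where called, at least 2-fold from WT, or a partner of a member. Gene order for neighbours came from RefSeq (GRCm38.p6), used without coordinates, as its build differs from that of the counts.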

Additional observations from a re-analysis of the deposited data

How the results depend on the processing

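No paired analysis was possible because K3R3 had 1 library and shares fewer than 2 replicate numbers with WT. The count of members called (3 higher, 0 lower) stayed within 1.5 times under the alternatives run across all genes. Grb10 lost its call with RLE factors (0.57), no filter, the likelihood ratio test (0.58 each) and DESeq2 (0.58), and H19 gained one with implied totals (0.95, adjusted p = 0.044). The WT libraries were far apart for H19, and its SE was 1.14 in DESeq2. Over all genes, 280 were called higher and 75 lower, against 466 and 50 (90.3% higher, beside 78.9%) with implied totals and 33 and 26 (55.9% higher) with DESeq2. Implied totals moved the median of all genes to 0.11 and that of the members to 0.34, the paternal median to 0.36, H19-Igf2 to 0.80, the Peg3 domain to 0.70 and Zrsr1-Commd1 to -0.12, left 6 members below both WT libraries, and called 5 neighbours higher and 0 lower. A minimum of 2 CPM gave 0.12 for all members, 0.13 for paternal members, -0.084 for the parental difference and 1 IGF gene higher. Taking off the class and CPM range median gave 0.082 for all, 0.082 for paternal and 0.018 for maternal members. DESeq2 called 1 further imprinted gene higher, 1 DNA methylation and imprint factor lower, 0 IGF genes, and 1 neighbour higher and 0 lower. Without 1 WT replicate, the medians ranged from 0.072 to 0.20 for all members and 0.013 to 0.20 for maternal members. The H19-Igf2 median then ranged from 0.78 to 0.88, and the parental difference from 0.062 to 0.18. The parental difference was -0.31 without the maternal placenta and brain genes, with all paternal members kept. With another scaling, Impact (-0.0012, RLE) and Asb4 (0.083, implied totals) changed sign. Without WT replicate 1 the sign also turned for Impact (-0.031), Peg10 (0.11), Mkrn3 (-0.12), Inpp5f (-0.035) and Gnas (-0.0024). Without replicate 2 it turned for Kcnq1ot1 (-0.12), Ascl2 (-0.30) and Igf2r (-0.0013). Taking off the class and CPM range median turned Peg12 (-0.22) and Phlda2 (-0.37), and also Mkrn3 and Ascl2. Against 1 WT library alone, an alternative chosen after seeing the data, 4 members were at least 2-fold above it, for either library.

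With 1 K3R3 library, nothing here tells the mutation from the library, culture or sort. Members under 2 CPM rest on few reads. The cause of these shifts was not tested.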
